A study of Saccharomyces cerevisiae with 21 samples.

Results

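Of the 6572 nuclear-genome features counted in budding yeast, 433 (6.59%) lay antisense to a longer gene. A feature was taken as antisense where a single longer feature on the opposite strand covered at least 50% of its length, from the positions and strands in the count tables, with mitochondrial and spike-in entries left out. The libraries kept the strand of the RNA, so a count for such a feature comes from RNA of the strand opposite its longer partner, over the covered part or the rest of the feature. The 433 features faced 417 partners, 16 of which had 2 antisense features. They were short, at 81 to 1035 bases with a median of 366, against 1146 for the other 6139 features and 1407 for the partners. The partner covered 101 of them wholly, 184 reached past the partner's 5′ end, where its reading frame starts, and 148 past its 3′ end. At the edge of the rule, YGR265W was covered over 50.1% of its length and kept, and YMR290W-A was covered over 48.9% and left out.

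A reference annotation newer than the authors' own (release R64-5-1) still lists 37 of the 433, or 8.55%, against 95.5% of the other features. The 396 that it does not list are called unlisted antisense features here. Each is drawn as a reading frame from an ATG to a stop codon, and for 390 of them the longer partner is a listed gene. The 37 listed ones are of another kind. For 12 of them (YCR087C-A, HYP2, SPT4, CUP1-1, CUP1-2, MET28, LSM8, AIM26, DID2, COA6, PGA2 and HRT1) the longer partner is itself unlisted, so that the antisense label goes against them: they are ordinary short genes facing an old reading frame. Levels are therefore given for each group, and detection for the unlisted features. Counts of calls and of pair ratios hold both groups, unless listed or unlisted features are named.

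Poly(A) RNA was sequenced from haploid MAT alpha yeast of strain BY4742 (his3Δ1 leu2Δ0 lys2Δ0 ura3Δ0). In all of them NAB2, whose product binds poly(A) RNA in the nucleus, was fused to green fluorescent protein and marked with HISMX. The IDR mutant lacked residues 104 to 263 of Nab2, its QQQP and RGG stretches, and carried an SV40 nuclear localization signal with the yEGFP tag; the interface mutant carried the substitution F450A; the wild type carried NAB2-yEGFP. Nuclear extracts came from starved cells of each strain with 3 libraries each, and whole cells were sampled starved and unstressed with 2 libraries per strain and state. Starved cells were washed 3 times and kept 24 h in synthetic complete medium without glucose, and unstressed cells were growing in mid-log phase in the same medium with 2% glucose.

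Antisense RNA in budding yeast arises from promoters in the gap behind a gene's end, from promoters inside genes and from transcripts of a neighbouring gene that run on past their own end. Much of it is short-lived. In the nucleus the RNA-binding proteins Nrd1 and Nab3 with the helicase Sen1 end such transcripts early and pass them to the TRAMP complex and the nuclear exosome, and in the cytoplasm the exonuclease Xrn1 destroys those that escape. Histone marks left behind by elongating polymerase, among them the methylation set by Set2, hold down starts inside genes. Nab2 binds poly(A) tails in the nucleus, takes part in tail length control and export, and gathers in condensates when glucose is withdrawn.

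The antisense stretches of the 5 features that carry the results on starvation and on the nuclear fraction are printed here 5′ to 3′ on the antisense strand, from the RefSeq genome of assembly R64, limited to the part under the longer gene. They are AUA1 at chrVI:115108-115274 (plus strand, under the end of WWM1), YNL097W-A at chrXIV:441431-441586 (plus strand, inside PHO23), YJL169W at chrX:102227-102467 (plus strand, under the end of SET2), YBR099C at chrII:443008-443307 (minus strand, inside MMS4, its first 300 of 384 bases) and YLR338W at chrXII:804346-804645 (plus strand, inside VRP1). For YLR338W these are the first 300 of 761 covered bases, the part farthest from the start of VRP1. All 5 are shown because RNA over these bases is antisense to the longer gene. The counts cover each whole feature. Capitals mark TCTT, the letters Nab3 recognises, and GTAG, those of Nrd1, wherever they occur on this strand.
AUA1: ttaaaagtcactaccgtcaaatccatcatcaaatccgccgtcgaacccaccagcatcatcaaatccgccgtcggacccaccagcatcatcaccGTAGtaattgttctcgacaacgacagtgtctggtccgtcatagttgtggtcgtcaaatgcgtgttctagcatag
YNL097W-A: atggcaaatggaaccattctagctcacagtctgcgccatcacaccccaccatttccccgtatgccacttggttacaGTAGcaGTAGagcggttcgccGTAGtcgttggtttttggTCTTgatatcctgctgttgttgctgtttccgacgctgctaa
YJL169W: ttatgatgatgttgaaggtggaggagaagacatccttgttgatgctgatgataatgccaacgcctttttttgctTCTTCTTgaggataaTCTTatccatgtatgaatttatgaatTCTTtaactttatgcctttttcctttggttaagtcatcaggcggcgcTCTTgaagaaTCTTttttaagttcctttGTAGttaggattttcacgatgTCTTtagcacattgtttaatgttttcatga
YBR099C: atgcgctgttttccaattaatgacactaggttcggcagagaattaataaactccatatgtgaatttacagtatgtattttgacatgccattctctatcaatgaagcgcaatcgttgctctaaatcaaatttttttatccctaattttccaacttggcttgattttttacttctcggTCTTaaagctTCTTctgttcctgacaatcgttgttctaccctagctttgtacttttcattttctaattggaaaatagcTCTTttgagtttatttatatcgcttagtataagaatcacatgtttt
YLR338W: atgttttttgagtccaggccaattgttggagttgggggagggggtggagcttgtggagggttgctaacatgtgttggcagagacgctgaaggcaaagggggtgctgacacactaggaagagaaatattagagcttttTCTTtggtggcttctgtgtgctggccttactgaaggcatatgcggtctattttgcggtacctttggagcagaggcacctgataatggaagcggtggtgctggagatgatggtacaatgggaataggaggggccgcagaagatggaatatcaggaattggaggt
The stretches differ in these letters: AUA1 holds TCTT 0 times and GTAG 1 time, YNL097W-A 1 and 3 times, YJL169W 7 and 1 times, YBR099C 3 and 0 times and YLR338W 1 and 0 times. Each is a plain match to letters and shows no binding.

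Whole cell libraries held 4811340 to 14066520 counts in nuclear-genome features and 7 of the nuclear libraries 6352646 to 23132474. The other 2 nuclear libraries, wild type replicate 3 and interface mutant replicate 3, held 1079 and 3980 and were left out of every test. In 5 of the 7 deep nuclear libraries the most similar library belonged to another strain. Unstressed wild type replicate 1 stood apart from the other unstressed libraries (mean distance to them 0.931 in log2 CPM over features, against 0.406 to 0.455). Starved interface mutant replicate 1 was nearest to a starved wild type library. Its mean distance of 0.549 lay within the 0.546 to 0.656 of the starved libraries. Unstressed wild type replicate 2 was likewise nearest to an unstressed interface mutant library. Ranges with each library left out in turn are given below. Of the strain markers, the deleted genes had at most 2 counts for LEU2, 5 for LYS2 and 2 for URA3 in the 19 libraries kept. HIS3 had 43 to 752 counts. The alpha pheromone gene MFALPHA1 had 854 to 26520, and the a pheromone genes MFA1 and MFA2 had 3 to 173 and 3 to 718. The source of the HIS3, MFA1 and MFA2 counts was not tested. NAB2, from which the IDR mutant lacks a stretch, was lower in starved IDR mutants than in starved wild type (log2 −1.37 ± 0.39, adjusted p = 0.028, edgeR) but not called in unstressed cells (0.68 ± 0.39, adjusted p = 0.22). Nuclear and whole cell libraries came from different runs, so fraction and run cannot be told apart in any comparison between them.

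Antisense RNA was scarce. The median unlisted antisense feature had 0.131 CPM (counts scaled to a common library total) as a mean over the 12 whole cell libraries, the median listed one 0.970 CPM and the median other feature 64.2 CPM. Per kilobase of length the medians were 0.340 for unlisted features, 2.35 for listed ones, 51.4 for the longer partners of unlisted features and 47.3 for all other features. At least 1 CPM was reached by 55 of the 396 unlisted features and by 17 of the 37 listed ones, and the highest unlisted feature had 54.1 CPM. At the other end, 51 unlisted features had no count in any whole cell library, and 3 antisense features had none in any library at all.

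**Figure D1:**
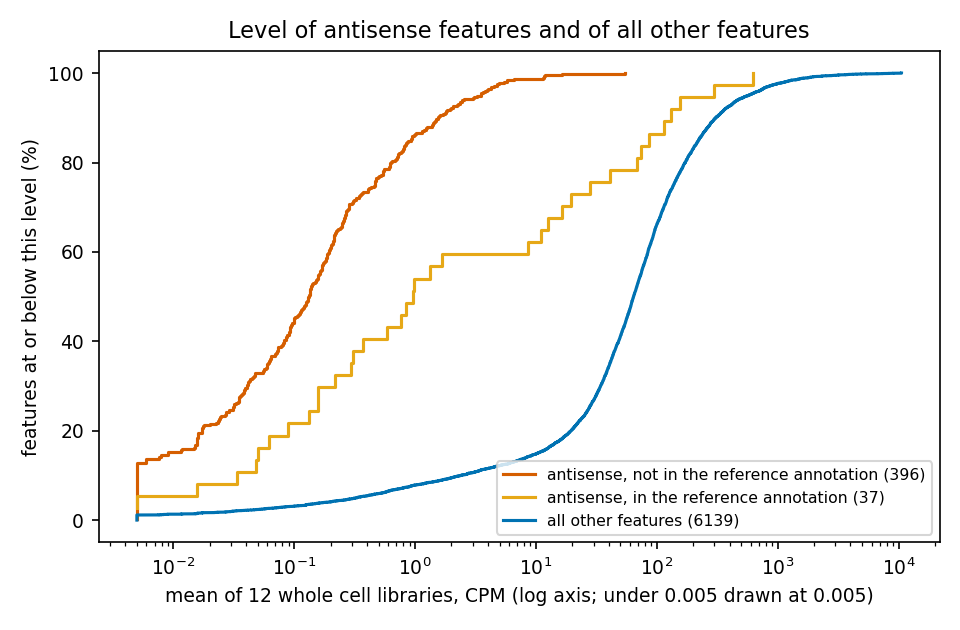
Cumulative percentage of features (y axis) against mean CPM over the 12 whole cell libraries (x axis), for the 396 unlisted antisense features, the 37 listed ones and the 6139 other features. The unlisted curve lies far to the left, with a median of 0.131 CPM against 64.2 CPM for the other features.

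The cumulative plot of levels places the listed antisense features between the other curves and spread across both. Per base of length, unlisted antisense features stood at a median of 0.579% of their own partner in starved wild type and 0% in unstressed wild type. The IDR mutant gave 0.985% starved and 0.176% unstressed, and the interface mutant 0.528% starved and 0.0646% unstressed. In nuclear extracts of starved cells the medians were 1.69% for wild type, 1.73% for IDR mutant and 1.86% for interface mutant cells. These are medians over the 368 to 388 pairs whose partner had at least 50 counts.

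The share of this signal that is sense RNA read on the wrong strand was not tested. Strongly expressed partners show how few antisense counts stood beside many sense counts. Over partners with at least 5000 counts in a library, the unlisted antisense features together made up 0.0389 to 0.154% of the pair's counts in nuclear libraries. They made up 0.0020 to 0.0125% in starved whole cell libraries and 0.0023 to 0.0238% in unstressed ones. Over the same 38 pairs in every library, with at least 1000 counts for the partner, the share was 0.0479 to 0.0914% in nuclear, 0.0155 to 0.0426% in starved whole cell and 0.0122 to 0.0198% in unstressed whole cell libraries. These shares include any true antisense RNA of the same genes. They are shares of raw counts, not scaled for length or for the part that overlaps, so they set no limit on the per-base medians.

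All antisense features together held 0.153 ± 0.0017% of counts in starved wild type and 0.289 ± 0.0723% in unstressed wild type (SD, n = 2 each). That sum includes the listed genes, among them HYP2, the gene of translation factor eIF5A. The 396 unlisted features alone held 0.0300% in starved and 0.0359% in unstressed wild type. Starved and unstressed IDR mutant cells had 0.0298% and 0.0294%, and starved and unstressed interface mutant cells 0.0259% and 0.0280%. In nuclear extracts their share was 0.0578% for wild type, 0.0435% for IDR mutant and 0.0503% for interface mutant cells, above each whole cell group.

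More antisense features were detected after starvation, and more again in the nucleus. At the number expected when every library is thinned to 4811340 counts, 260 to 299 of the 396 unlisted features had a count in the 7 nuclear libraries of starved cells (median 291), 185 to 227 in the 6 starved whole cell libraries (median 198) and 128 to 155 in the 6 unstressed ones (median 139). The 3 ranges do not overlap. The other 6139 features moved far less, with 5973 to 6009 detected in nuclear, 5901 to 5941 in starved whole cell and 5805 to 5845 in unstressed whole cell libraries. Without thinning, the unlisted counts were 311 to 369 in nuclear, 196 to 233 in starved and 159 to 202 in unstressed libraries. The starved IDR mutant had the most among whole cell libraries, at 223 and 227, against 189 and 202 in starved wild type, and the starved interface mutant had 193 and 185.

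**Figure D2:**
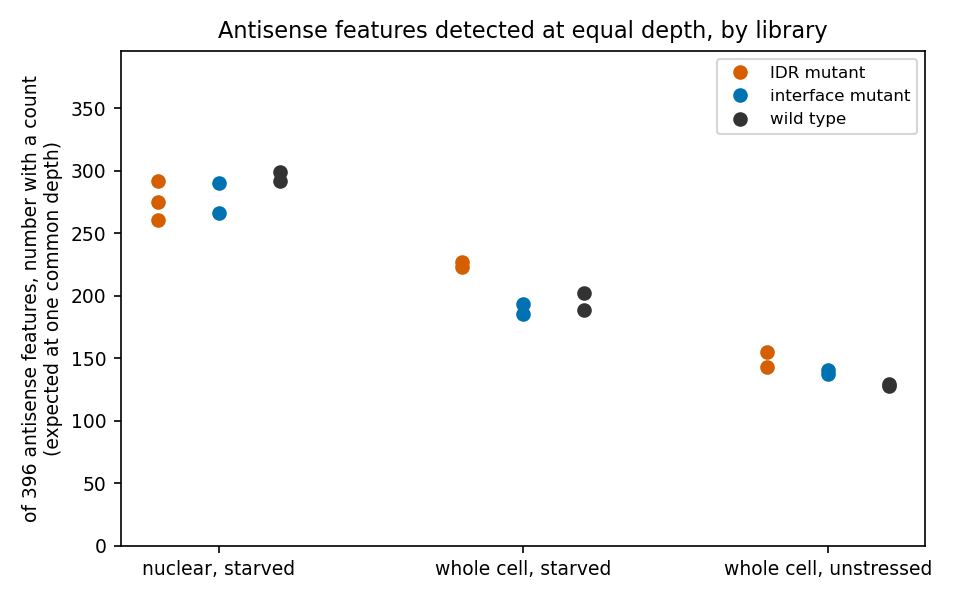
Number of the 396 unlisted antisense features with at least 1 count (y axis) expected in each library at 4811340 counts, with 1 point per library and groups along the x axis by fraction, state and strain. Nuclear libraries of starved cells lie at 260 to 299, starved whole cell libraries at 185 to 227 and unstressed ones at 128 to 155.

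The plot of detected features shows that each starved library, in any strain, lies above each unstressed one. Over all 396 unlisted features, mean CPM was higher in the pooled starved whole cell libraries than in the pooled unstressed ones for 273 and lower for 72, although the starved pool was the shallower (35112811 counts, against 64366359). Detection is a property of a list and carries no test here.

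Changes with starvation were tested feature by feature in a fit over all 12 whole cell libraries. Features rose or fell where edgeR's quasi-likelihood test gave a Benjamini-Hochberg adjusted p under 0.05 over the 5845 tested. A filter on low counts let 104 of the 433 antisense features through, 83 of them unlisted; a feature high in a single state can pass on that state alone, so the counts describe those tested and not the 433. Averaged over the 3 strains, 64 of the 104 rose and 19 fell, with a median log2 fold change of 1.10, where 38.3% of all features rose and 41.3% fell, with a median of −0.03. By strain, 37 rose and 17 fell in wild type (all features 31.8% and 34.6%). In IDR mutant cells 46 rose and 15 fell (33.1% and 34.4%), and in interface mutant cells 39 rose and 8 fell (29.7% and 30.2%). In all, 83 were called for the mean over strains and 54 in wild type. RNA from fewer cells and less RNA in each cell cannot be told apart in such bulk libraries, and all values are relative to the counted RNA of a library. Whether replicates came from separate cultures is not stated, so p-values measure the spread between libraries, which may be technical.

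AUA1, at chrVI:114990-115274, a listed gene once tied to ammonia regulation of amino acid transport, had the widest contrast. It had 13.8 and 19.7 CPM in starved wild type, 14.3 and 16.2 in starved IDR mutant and 26.5 and 13.5 in starved interface mutant cells, against 0.0711 and 0, 0 and 0, and 0.107 and 0 in the same strains unstressed. The groups lie far apart in every strain. Summed, these were 615 counts in starved and 2 in unstressed libraries, a depth-scaled ratio of 564 with a 95% counting interval of 155 to 4665, and the test gave an adjusted p of 2.4e-07. Its partner WWM1, which encodes a WW-domain protein, had 270 to 415 CPM starved and 118 to 289 CPM unstressed, a log2 change of 0.79 ± 0.14. The nearest feature upstream on AUA1's own strand, the hexose transporter gene HXT10, ends 1004 bases away.

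YNL097W-A lies wholly inside PHO23, which encodes a subunit of the Rpd3L histone deacetylase. It had 5.27 and 3.33 CPM in starved wild type, 5.15 and 6.39 in starved IDR mutant and 3.42 and 2.91 in starved interface mutant cells, against 0 and 0, 0.323 and 0.0948, and 0 and 0 unstressed. It was near 0 in every unstressed library and above 2.9 CPM in every starved one, with a log2 change of 7.08 ± 0.43 (adjusted p = 2.3e-06, edgeR). The size of that change rests in part on the fit's prior count, as unstressed wild type and interface mutant had no count. Pooled, there were 151 starved and 4 unstressed counts, or 4.30 against 0.0621 CPM. PHO23 itself had 19.3 to 62.8 CPM starved and 66.5 to 89.3 unstressed (−0.47 ± 0.21, adjusted p = 0.058), which did not pass the test.

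YJL169W overlaps the end of SET2, the gene of the histone H3 lysine 36 methyltransferase that restrains starts inside genes. It had no count in any of the 6 unstressed libraries. Starved, it had 2.72 and 6.03 CPM in wild type, 2.48 and 0.564 in IDR mutant and 1.42 and 0.416 in interface mutant cells. It was highest in starved wild type, and its 73 starved counts make it at least 44.6-fold higher, with the floor set at 3 counts over the unstressed group (adjusted p = 0.00061, edgeR). SET2 fell, with 19.7 to 57.6 CPM starved and 64.8 to 172 unstressed (log2 −1.69 ± 0.19, adjusted p = 2.1e-05).

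YBR099C, at chrII:442924-443307, lies inside MMS4, which encodes a subunit of the Mus81-Mms4 DNA endonuclease. It had 7.26 and 5.20 CPM in starved wild type, 5.91 and 5.08 in starved IDR mutant and 9.68 and 12.1 in starved interface mutant cells, against 0.924 and 0.894, 1.18 and 2.46, and 1.50 and 1.36 unstressed. The groups do not overlap in any strain, and the log2 change was 2.65 ± 0.21 (adjusted p = 2.2e-06, edgeR). MMS4 gave −0.05 ± 0.17. The gene that ends 513 bases upstream on YBR099C's strand, the chaperone nucleotide exchange factor gene FES1, rose by log2 4.37 ± 0.09.

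YLR338W, at chrXII:804346-805203, overlaps the beginning of VRP1, the gene of the actin-binding protein verprolin. It had 2.36 and 1.87 CPM in starved wild type, 7.82 and 7.71 in starved IDR mutant and 0.711 and 2.08 in starved interface mutant cells, against 0.213 and 0.298, 0.431 and 0.569, and 0.107 and 0.363 unstressed. It was higher starved in every strain and highest in the IDR mutant, with a mean log2 change of 3.36 ± 0.34 (adjusted p = 1.0e-05, edgeR). VRP1 rose with it, by 1.79 ± 0.23.

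**Figure D3:**
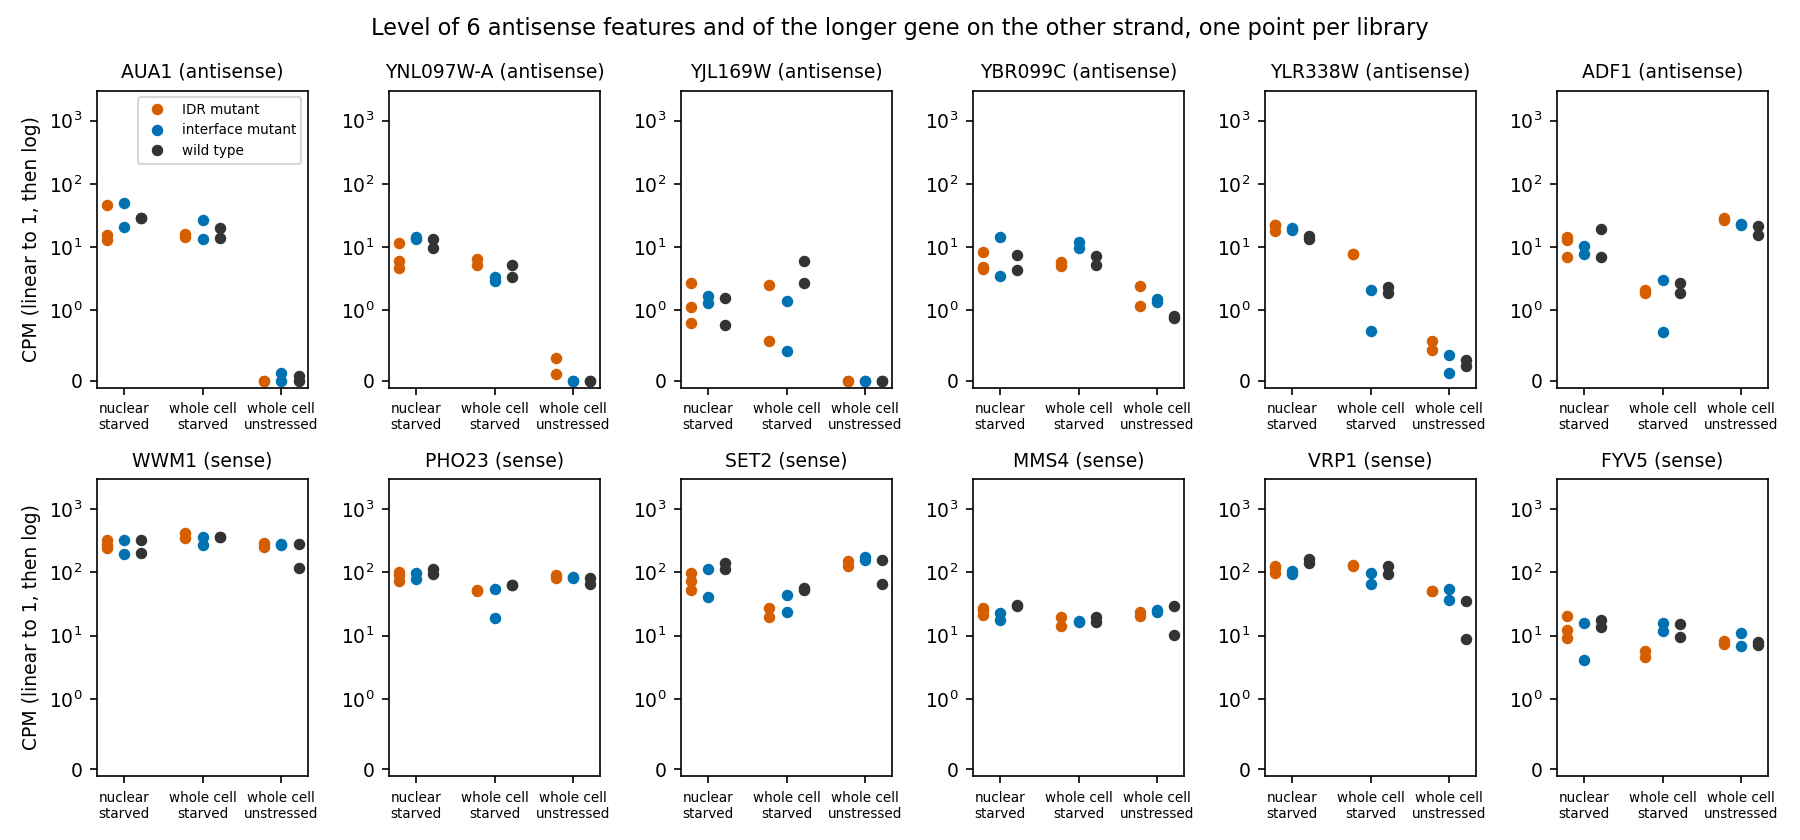
CPM (y axis, linear near 0 and logarithmic above) of 6 antisense features (upper panels) and of the gene each one faces (lower panels), with 1 point per library and the groups nuclear starved, whole cell starved and whole cell unstressed along the x axis. AUA1, YNL097W-A, YJL169W, YBR099C and YLR338W are higher in starved than in unstressed whole cells and ADF1 is lower, at 0.694 to 2.99 CPM starved against 15.4 to 28.6 CPM unstressed.

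The plot of values by library sets each feature above its partner, and the shapes differ: AUA1, YNL097W-A and YJL169W appear from near 0 over partners that were present throughout. Other features that were silent in glucose behaved alike. YMR172C-A, at the end of HOT1, a transcription factor gene of the osmotic stress pathway, had 0.416 to 1.63 CPM starved and 0 in every unstressed library, at least 23.2-fold higher. YOL050C, opposite the Mediator subunit gene GAL11, was at least 42.8-fold higher and YJL064W, opposite DLS1, at least 18.9-fold. YLR171W, opposite the clathrin adaptor gene APS1, had 54 starved and 3 unstressed counts, a ratio of 33.0 with a 95% counting interval of 10.7 to 165.

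The features that fell were fewer. ADF1, at chrIII:23584-23925 inside FYV5, is a listed gene whose product has been described as a repressor of FYV5. It had 2.72 and 1.87 CPM in starved wild type, 1.91 and 2.07 in starved IDR mutant and 2.99 and 0.694 in starved interface mutant cells, against 15.4 and 21.4, 26.7 and 28.6, and 23.6 and 22.6 unstressed. The ranges lie far apart (log2 −3.22 ± 0.24, adjusted p = 1.1e-06, edgeR), while FYV5 gave 0.48 ± 0.19 (adjusted p = 0.036). YKL202W, at the end of MNN4, a gene of cell wall mannosylphosphate transfer, had 0 to 0.564 CPM starved and 1.42 to 6.07 unstressed, and fell by 5.22 ± 0.59 on the log2 scale (adjusted p = 4.6e-05). MNN4 changed in the same direction, by −1.30 ± 0.19.

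For 81 of the 433 antisense features, the next gene upstream on the same strand ends within 300 bases, so that RNA running past that gene's end would be counted as antisense; they are called tail-side here. Among tail-side unlisted features 10 rose and 7 fell of 28 tested (median log2 −0.12), and among the rest 43 rose and 3 fell of 55 (median 1.58). By place on the partner, 20 rose and 1 fell of 24 that reach past the partner's 5′ end (median 1.65), 9 rose and 0 fell of 13 wholly covered (1.49), and 24 rose and 9 fell of 46 at the 3′ end (0.68). Each is to be read beside the 38.3% and 41.3% of all features, and differences between these positions were not tested.

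Tail-side features followed the gene upstream of them. Their log2 starvation changes and those of that gene had a Spearman rho of 0.86 over 27 features, with the same sign in 22, and the other unlisted features had 0.03 over 49, with the same sign in 25. Such points share their libraries, so this is a description, and whether they share transcripts was not tested. YOR102W, behind RAS1, a small GTPase gene, had 0.416 to 1.13 CPM starved and 2.56 to 9.47 unstressed (−2.64 ± 0.25), and RAS1 changed by −2.83 ± 0.11. YOR121C, behind the profilin gene PFY1, fell by 2.16 ± 0.15 and PFY1 by 1.12 ± 0.14, both on the log2 scale. YDL158C behind DMO2 and YKL136W behind CMC1 changed by −1.76 ± 0.29 and −1.86 ± 0.32, where DMO2 changed by −1.94 ± 0.25 and CMC1 by −1.22 ± 0.28. In the other direction, YFL013W-A behind the stress gene HSP12 rose by 5.12 ± 0.87 and HSP12 by 4.14 ± 0.31.

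**Figure D4:**
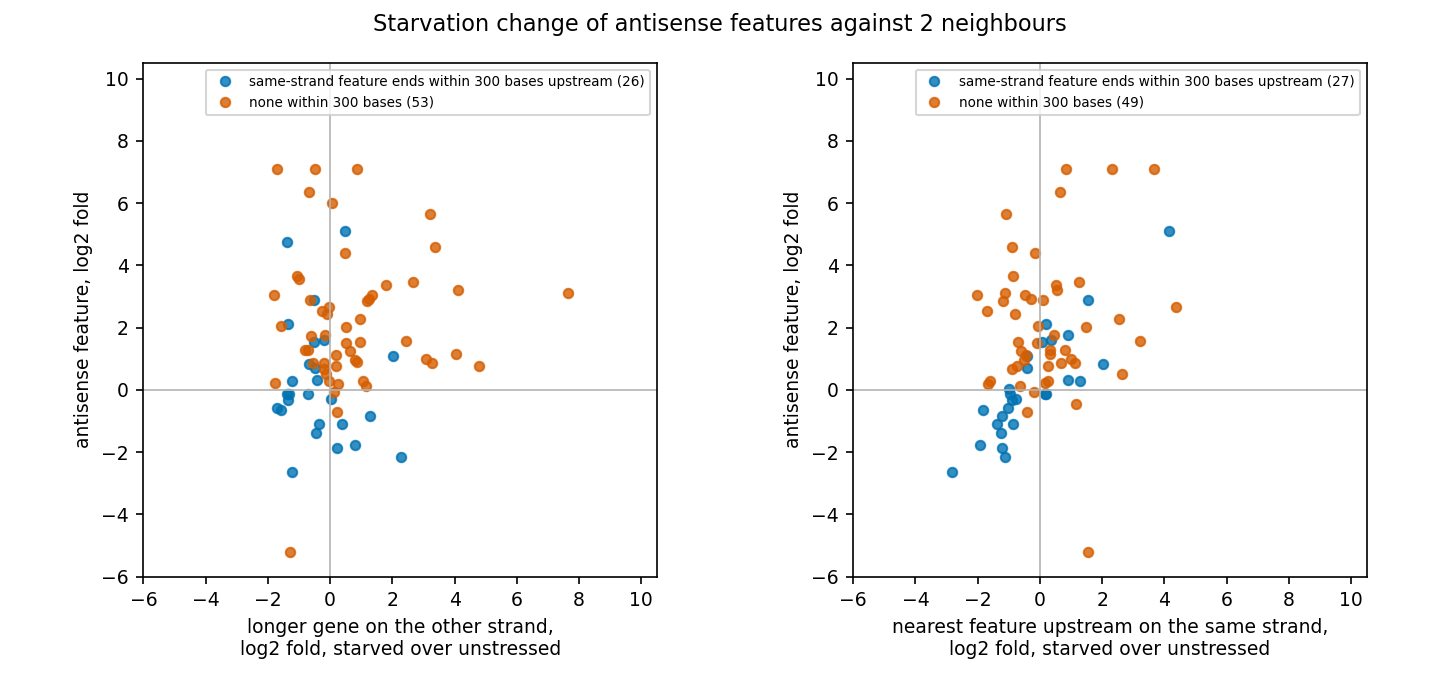
Log2 starvation change of unlisted antisense features (y axis) against that of the longer partner (left panel, 26 tail-side and 53 other points) and of the nearest gene upstream on the same strand (right panel, 27 and 49 points), each as the mean of 3 strains. Tail-side points run along the diagonal in the right panel (rho 0.86), and neither panel shows such a run for the other points (0.03 in the right panel); changes of features at 0 in a whole group rest on the fit's prior count.

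The plot of starvation changes shows no like relation with the gene on the other strand. Over the 92 antisense features tested together with their partner, the rho between both log2 changes was 0.07. Both changed in the same direction in 29 pairs and in opposite directions in 24. Among the 79 pairs with an unlisted feature, feature and partner both rose in 22, the feature rose over a falling partner in 16, and it rose with no call for the partner in 13. Antisense rises thus came with every kind of partner change.

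The ratio of antisense to sense counts was then tested pair by pair in limma, over pairs with enough counts. In pairs whose longer partner is unlisted, such as HYP2 and YEL034C-A, it is the ratio of the ordinary gene to that reading frame. The ratio rose with starvation in 45 of the 92 antisense pairs and fell in 23, 68 in all (median log2 0.89). Of the 131 overlapping opposite-strand pairs tested in that fit, 92 of which are these, 45% rose and 20.6% fell. The widest rise was again AUA1 over WWM1 (6.21 ± 0.38), followed in the pairs described above by YJL169W over SET2 (5.67 ± 0.39) and YNL097W-A over PHO23 (5.43 ± 0.38). All 3 antisense features had unstressed libraries without a count. The sizes, their order and their errors thus depend on the prior count of 1. YJR087W, at the end of EMC2, had 4.14 to 7.44 CPM starved and 0.711 to 2.37 unstressed. It rose by 2.13 ± 0.20 where EMC2, of the membrane protein insertion complex, fell by 1.35 ± 0.15 on the log2 scale, and the pair ratio rose by 3.36 ± 0.29.

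YLR317W, inside TAD3, a gene of tRNA adenosine deaminase, had 5.83 to 8.97 CPM starved and 1.07 to 5.47 CPM unstressed. It rose by 1.27 ± 0.27, where TAD3 fell by 0.80 ± 0.14 on the log2 scale. For YLR171W over APS1 the ratio rose by 4.74 ± 0.35 and for YMR172C-A over HOT1 by 4.11 ± 0.32, with APS1 at −1.37 ± 0.25 and HOT1 at −0.69 ± 0.20. YMR172C-A had no unstressed count, so the size of its ratio change also depends on the prior count.

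Some ratios fell where the sense gene rose. SPS19, which encodes a peroxisomal enzyme of fatty acid breakdown, had 105 and 109 CPM in starved wild type, 206 and 226 in starved IDR mutant and 191 and 246 in starved interface mutant cells, against 6.54 to 8.35 over the unstressed libraries. It rose by log2 4.78 ± 0.12, while YNL203C over its beginning gave 0.76 ± 0.36 (adjusted p = 0.073, edgeR), and the ratio changed by −4.04 ± 0.38. GCY1, a glycerol dehydrogenase gene, rose by 2.26 ± 0.08 while YOR121C over its end fell, with a ratio change of −4.42 ± 0.21.

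Of the listed features, 21 were tested, and 11 rose and 9 fell with starvation. Those that fell were, all but ADF1 and LSM5, ordinary short genes facing an unlisted reading frame. HYP2 had 398 to 474 CPM starved and 450 to 1165 unstressed (−0.68 ± 0.08), and the elongation factor gene SPT4 (−1.80 ± 0.31), the secretory pathway gene PGA2 (−1.60 ± 0.28), the Lsm ring genes LSM8 (−1.58 ± 0.27) and LSM5 (−1.49 ± 0.30) and the endosomal sorting gene DID2 (−0.71 ± 0.19) were lower too. In unstressed wild type replicate 1, the library that stands apart, PGA2 reached 1013 CPM, LSM5 479 and SPT4 287. The RNA that runs antisense to HYP2 is counted in its longer unlisted partner YEL034C-A. That feature had 0.363 and 2.49 CPM in starved wild type, 6.68 and 5.08 in starved IDR mutant and 4.13 and 3.19 in starved interface mutant cells, against 0 to 0.284 unstressed. It rose by 4.72 ± 0.54 (adjusted p = 2.4e-05, edgeR), opposite to HYP2. CPP2, a listed gene inside the nearly silent YDR209C, had 123 to 205 CPM starved and 49.7 to 122 unstressed and rose by 1.42 ± 0.21.

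The mutants differed from wild type in few antisense features. In unstressed cells the IDR mutant had 1 call of the 104 tested, HYP2 at log2 0.67 ± 0.14 (adjusted p = 0.048, edgeR; all features 1.68%), and the interface mutant had 0 with edgeR (all features 0%; 14 at an unadjusted p under 0.05). The HYP2 call was lost without either IDR mutant library (adjusted p = 0.27 and 0.20), with the replicate block (0.066), with RLE factors (0.053), with no filter (0.053) and with only the compared groups (0.44). Without unstressed wild type replicate 2, more features were called in both mutants. That fit leaves replicate 1, the library that stands apart, as the only unstressed wild type. In starved cells the interface mutant had 0 calls with edgeR and 1 with DESeq2 (all features 0.496%; 6 at an unadjusted p under 0.05). The starved IDR mutant had 8 higher and 5 lower than starved wild type, where 15.9% of all features were higher and 13.3% lower, so the share among antisense features is no greater than among the rest. That count of 13 was 5 without starved wild type replicate 1, 5 without replicate 2, 7 without starved IDR mutant replicate 1 and 3 without replicate 2.

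Among those higher in the starved IDR mutant were 2 features opposite MRX3, a mitochondrial gene, YBL096C (2.42 ± 0.49, adjusted p = 0.0061, edgeR) and YBL094C (2.10). YER023C-A opposite the proline synthesis gene PRO3 (4.27 ± 1.05), YOR333C opposite the magnesium channel gene MRS2 (2.74) and YOR366W were also higher. Whether the calls of YBL096C, YBL094C, YER023C-A and YOR333C hold with a library left out was not tested. YOR366W had 7.63 and 6.02 CPM in the starved IDR mutant and 3.45 and 2.08 CPM in starved wild type (1.46 ± 0.41, adjusted p = 0.026). Its call was lost with any 1 of the 4 libraries left out (adjusted p = 0.061 to 0.17). YLR338W had 7.82 and 7.71 CPM in the starved IDR mutant and 2.36 and 1.87 CPM in starved wild type (2.04 ± 0.43, adjusted p = 0.007), with an adjusted p of 0.063 without starved wild type replicate 2. Its partner VRP1 had 125 and 130 CPM in the starved IDR mutant and 126 and 93.5 CPM in starved wild type.

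Lower in the starved IDR mutant were YNR025C opposite the exosome cofactor gene MPP6 (−2.81 ± 0.64, adjusted p = 0.01, edgeR), YER087C-A opposite AIM10 (−1.66), YOR121C, COA6 and YCR087C-A. For YNR025C and YER087C-A, too, the call was not tested with a library left out. YOR121C had 13.2 and 8.09 CPM in the starved IDR mutant and 27.4 and 27.0 CPM in starved wild type (−1.18 ± 0.27, adjusted p = 0.01); the adjusted p was 0.055 without starved wild type replicate 1 and 0.091 without starved IDR mutant replicate 2. GCY1 across from it was higher in the mutant (1.09 ± 0.13), and the pair's ratio was lower (−2.30 ± 0.36, adjusted p = 0.0019, limma). COA6, a cytochrome c oxidase assembly gene, had 30.9 and 23.5 CPM in the starved IDR mutant and 46.8 and 43.4 CPM in starved wild type (−0.56 ± 0.17, adjusted p = 0.035), with an adjusted p of 0.17 without starved wild type replicate 1, 0.099 without replicate 2 and 0.23 without starved IDR mutant replicate 2. Over the 92 antisense pairs, the ratio was higher in the starved IDR mutant in 5 and lower in 3, against 5.34% and 3.82% of the 131 pairs tested.

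The starvation change itself differed between IDR mutant and wild type in 3 antisense features, against 11.8% of all features. MET28, a listed transcription factor gene of sulfur metabolism, had 53.6 and 60.7 CPM in the starved and 15.5 and 19.9 in the unstressed IDR mutant, with 29.8 and 32.6 CPM in starved and 20.4 and 19.2 in unstressed wild type. It changed by 2.09 ± 0.23 in the IDR mutant and 0.60 ± 0.23 in wild type, a difference of 1.49 ± 0.32 (adjusted p = 0.02, edgeR). YIL059C, opposite YIL060W, changed by 1.52 in the IDR mutant and 0.23 in wild type, a difference of 1.29 ± 0.35 (adjusted p = 0.045). YCR087C-A had 22.5 and 21.8 CPM in the starved IDR mutant and 57.6 and 60.1 CPM in starved wild type, and its starvation changes of −2.17 and −1.02 differed by −1.15 ± 0.20 (adjusted p = 0.01). The interface mutant had 0 such differences with edgeR, with all features at 0.0171% and 12 antisense features at an unadjusted p under 0.05. It had more without unstressed wild type replicate 2, a fit whose only unstressed wild type library is the one that stands apart. With 1 library left out, each of the 3 lost its call in some fits, at an adjusted p of 0.054 to 0.10 for MET28, 0.066 to 0.16 for YIL059C and 0.052 to 0.058 for YCR087C-A. The IDR mutant's count of 3 was also higher without unstressed wild type replicate 2, and it was lower without starved wild type replicate 1.

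Antisense RNA was richer in nuclear extracts than in whole cells of the same starved strains. Relative to whole cells, and averaged over the strains, 57 of the 135 antisense features tested were higher and 8 lower (median log2 0.62), where 27.3% of all features were higher and 24.8% lower. A feature high in a single fraction can pass the filter on that fraction alone. These counts, their subsets and those by strain therefore describe the features tested and not the 433. Of the 111 unlisted features tested, 49 were higher and 4 lower. Those not tail-side gave 40 higher and 3 lower of 80, and those past the partner's 5′ end 22 higher and 1 lower of 40 (median 1.29). Over all 396 unlisted features, mean CPM was higher in the nuclear pool for 344 and lower for 50, in a pool of 95187147 nuclear against 35112811 whole cell counts.

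By strain, 31 were higher and 1 lower in wild type nuclei (all features 17% and 14%). IDR mutant nuclei had 4 higher and 2 lower (4.6% and 4.92%), and interface mutant nuclei 36 and 4 (17.3% and 17%). These counts rest on few libraries. The wild type count of 32 was 5 without whole cell replicate 1, 6 without whole cell replicate 2 and 9 without nuclear replicate 2. The interface mutant count of 40 was 15 without whole cell replicate 1 and 26 without whole cell replicate 2, and the IDR mutant count of 6 ranged from 0 (without whole cell replicate 1) to 10 (without nuclear replicate 3) and was 11 with the replicate number as a block. The mean over strains gave 55 to 73. Nuclear IDR mutant and nuclear interface mutant each had 0 calls against nuclear wild type over 189 antisense features tested with edgeR (all features 0% in both; 8 and 4 at an unadjusted p under 0.05).

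YKL202W, opposite MNN4, had the widest nuclear contrast among the described features. It had 15.3 and 14.2 CPM in nuclear wild type, 11.1, 10.6 and 11.0 in nuclear IDR mutant and 8.49 and 17.8 in nuclear interface mutant extracts, against 0 to 0.564 in starved whole cells. No library overlaps (log2 7.18 ± 0.40, adjusted p = 3.7e-06, edgeR). MNN4 was also higher in nuclei, with 104 to 362 CPM against 9.78 to 16.0 in starved whole cells, and the ratio of the pair rose by 1.99 ± 0.35.

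YLR338W opposite VRP1 had 14.8 and 13.5 CPM in nuclear wild type, 17.9, 22.1 and 22.2 in nuclear IDR mutant and 20.4 and 18.5 in nuclear interface mutant extracts, against 0.711 to 7.82 in starved whole cells. All nuclear libraries lay above all whole cell ones (2.49 ± 0.20, adjusted p = 1.8e-05, edgeR), while VRP1 had 92.8 to 160 CPM in nuclei and 66.2 to 130 in whole cells (0.03 ± 0.11). YAL042C-A, at the beginning of ERV46, a vesicle protein gene, had 2.03 to 10.7 CPM in nuclei and 0 to 1.34 in whole cells (4.02 ± 0.60). YFL021C-A, at the beginning of GAT1, an activator of nitrogen genes, had 7.01 to 20.5 CPM in nuclei and 1.94 to 3.56 in starved whole cells (2.07 ± 0.30), and 0.758 to 1.09 in unstressed ones.

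Some other nuclear-high features were nearly absent from starved whole cells. YHL002C-A, over the beginning of the endosomal sorting gene HSE1, had 133 nuclear and 2 starved whole cell counts. Their ratio was 24.5, with a 95% counting interval of 6.66 to 205. Unstressed whole cells held 18 counts of it. HSE1 itself gave −0.09 ± 0.16. YBR277C, with 2 counts in starved and 12 in unstressed whole cells, had a nuclear to starved whole cell ratio of 17.7 (interval 4.77 to 148). YOR139C, at the beginning of the transcription factor gene SFL1, was higher by 2.90 ± 0.46 and SFL1 by 1.56 ± 0.14. YPL250W-A, inside the ribosomal protein gene RPL36B, had 158 nuclear and 3 starved whole cell counts (ratio 19.4, interval 6.53 to 95.2). ADF1, low in starved whole cells, had 7.05 to 19.6 CPM in nuclei against 0.694 to 2.99 CPM in starved whole cells (2.30 ± 0.34), a nuclear level below the 15.4 to 28.6 CPM of unstressed whole cells. YNL097W-A was higher in nuclei by 1.17 ± 0.28.

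The nuclear excess was not shared by each antisense feature. AUA1 had 13.0 to 49.2 CPM in nuclei and 13.5 to 26.5 in starved whole cells (0.65 ± 0.37, adjusted p = 0.16, edgeR), and YJL169W had 0.787 to 2.67 CPM in nuclei and 0.416 to 6.03 in starved whole cells. CPP2 was lower in nuclei, with 83.5 to 107 CPM against 123 to 205 (−0.92 ± 0.11), and so were HYP2 (−0.44 ± 0.15) and YOL150C at the end of GRE2 (−1.13 ± 0.25). Among the ordinary short genes, MET28 was higher in nuclei, at 66.4 to 216 CPM against 25.3 to 60.7 in whole cells (1.69 ± 0.31).

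In the pair test the antisense to sense ratio was higher in nuclei in 40 of 126 antisense pairs and lower in 22 (median log2 0.51), where 28.2% were higher and 17.2% lower of the 174 pairs tested. Without nuclear wild type replicate 2 the number called was 40 in place of 62. Feature and partner were called in the same direction in 32 of the 126 and in opposite directions in 7, with a rho of 0.06 between both log2 differences. The ratio was higher for YHL002C-A over HSE1 (3.59 ± 0.39), YLR338W over VRP1 (2.46 ± 0.24) and ADF1 over FYV5 (2.10 ± 0.45), and lower for YJL169W over SET2 (−1.56 ± 0.46), whose sense RNA was higher in nuclei by 1.18 ± 0.23.

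The genes known to restrain or destroy antisense RNA moved both ways with starvation. Of 42 such genes in 3 lists of 14, 16 rose and 20 fell (median log2 −0.27), beside 38.3% and 41.3% of all features. Cytoplasmic decay genes gave 4 risen and 7 fallen, among the risen XRN1 (1.17 ± 0.16). Nuclear decay and early termination genes gave 4 risen and 9 fallen, with the exosome nuclease RRP6 at −1.11 ± 0.13 and the TRAMP subunits AIR1 at −2.99 ± 0.18 and TRF5 at −2.59 ± 0.16, whereas NRD1 (0.79 ± 0.22), NAB3 (0.86 ± 0.21) and SEN1 (1.54 ± 0.14) rose. Chromatin genes gave 8 risen and 4 fallen, SET2 among the fallen. In the starved IDR mutant 1 of the 42 was higher and 13 lower than in starved wild type, beside 15.9% and 13.3% of all features. Among the 13 is NAB2 itself, from which the IDR mutant lacks a stretch. Any part of these genes in the antisense changes was not tested.

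In sequence, unlisted antisense features were set apart from coding strands in general by the letters they carry. TCTT occurred at a median of 13.0 per kilobase in unlisted features and 4.60 in the other features. The opposite strands of those other features held 10.9 per kilobase, so the strand opposite a coding gene is rich in it in general. GTAG occurred at 2.61 per kilobase in unlisted and 1.80 in other features, and G and C made up 41.2% and 39.6%. The stress element AGGGG of Msn2 and Msn4, searched on both strands from 250 bases before to 50 after the start, was present for 24.5% of the unlisted features that rose, 19.9% of all unlisted features and 21.7% of all features.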

How the data were processed

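Per the file headers, the authors made the deposited values by counting reads per gene with featureCounts 2.0.1, reverse-stranded. The option to split reads that map to several places as fractions was set, and reads over several features were left out. All counts are whole numbers and not normalized, so no split shows in them. Adapters were trimmed with cutadapt and reads aligned with TopHat2, per the submitters' processing notes, with versions not given in the sources used here. RNA was selected on oligo(dT) and the kit keeps the strand, per the labels' protocols. Reads shared by overlapping same-strand features are lost. How reads of identical copies such as CUP1-1 and CUP1-2 were handled was not tested. Whole cell headers name annotation release R64-2-1; the reference used here, release R64-5-1 of assembly R64, matched 5917 of 6600 features by name, 5888 of them at the same position.

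Mitochondrial features (28) and spike-in entries were left out, and 2 nuclear libraries under 0.2 of the nuclear median depth entered no test. The tests used edgeR 4.0.16 in R 4.3.3 (TMM, filterByExpr with a minimum count of 10, quasi-likelihood F test, Benjamini-Hochberg threshold 0.05) in fits of 12 whole cell libraries (5845 features), 13 starved libraries of both fractions (5936) and 7 nuclear libraries (6079). Pair ratios were tested with limma 3.58.1 on log2 ratios with a prior count of 1. DESeq2 1.42.0 was an alternative. Fold changes are log2 ± standard error, which for edgeR is approximate: the absolute log2 change over the square root of the test's F. Where a group had no count, that error rests on the fit's prior count too. Counting intervals and floors of 3 counts cover counting error only. Steps were tested on simulated data. Same-numbered nuclear libraries deviated together (3 of 3 correlations between 0.18 and 0.47), and with the number as a block the nuclear strain comparisons still gave 0 calls.

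The features, the list of 42 control genes and the naming rule were chosen with earlier results of these data known. Named are, among features past the threshold with no overlap between groups and at least 5 CPM, the 10 largest changes each way with starvation and the 6 largest between fractions and in the starved IDR mutant. Without a floor on CPM, the 3 smallest adjusted p in other comparisons, the 5 highest levels, and the 5 largest pair ratio changes each way were added; part of these is printed, and 1 feature is not reported here. YOL050C, YJL064W, YER087C-A, YNR025C and YOR333C lie outside the rule and were chosen after their values were seen.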

Additional observations from a re-analysis of the deposited data

Results flagged for a closer look

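The starvation response differed between IDR mutant and wild type, by a test of the difference itself (edgeR interaction term), in 3 antisense features. The log2 difference, IDR mutant minus wild type, was 1.49 for MET28 (YIR017C), 1.29 for YIL059C and −1.15 for YCR087C-A. YIL059C is unlisted and the others are ordinary short genes facing an unlisted reading frame. Leaving out 1 library or changing a setting took MET28 above an adjusted p of 0.05 in 7 alternatives, YIL059C in 8 and YCR087C-A in 5.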

How the results depend on the processing

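No gene result refitted under the alternatives reversed. Refitted were features named by their change or by the smallest adjusted p, each in the comparison that named it. Features named only by level or pair ratio were not refitted, among them YNL097W-A, YJL169W, YMR172C-A, YLR171W, YHL002C-A and YBL096C. Nor were those chosen outside the rule. Of 703 alternative values for 53 gene results, 651 kept direction and side of the threshold and 52 lost the call, all of these in a comparison that holds the IDR mutant; YCR087C-A in the starved IDR mutant kept its call in all. RLE scaling moved the median of all features by at most 0.0672 log2.

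Counts of antisense features called moved over 1.5 times as follows. IDR mutant against wild type, unstressed (1 call), gave 0 with RLE factors, 0 with no filter, 0 with only the compared groups and 10 with DESeq2. The nuclear comparison averaged over strains (65) gave 107 with no filter and 103 with DESeq2. The nuclear comparison in the IDR mutant (6) gave 13 with all 9 nuclear libraries and 13 with DESeq2. The starved interface mutant (0) gave 1 with DESeq2. With only the compared groups, starvation in wild type (54) gave 29, the starved IDR mutant (13) 28, its interaction (3) 1 and the nuclear interface mutant (40) 15. Pair ratios with no filter gave 203 for starvation (68), 19 for the IDR mutant (8) and 138 for nuclei (62). The cause of each was not tested, save that no filter tests more features.

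Counting only wholly covered features (101), starvation gave 11 calls in wild type, 14 in IDR mutant, 9 in interface mutant and 15 in the mean, the starved IDR mutant 2 and its interaction 1. The nuclear comparison gave 8 in wild type, 2 in IDR mutant, 6 in interface mutant and 13 in the mean, and pair ratios 10, 2 and 11. Fewer features enter by construction. Their share of counts in starved and unstressed cells was 0.0852% and 0.108% for wild type, 0.0725% and 0.151% for IDR mutant and 0.0823% and 0.129% for interface mutant, and 0.0740%, 0.0736% and 0.0653% in nuclei of wild type, IDR and interface mutant. With all 9 nuclear libraries the interface mutant's nuclear share of all antisense features was 0.120%.

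With 1 library left out in turn, the lone library of a pair taking its spread from the remaining groups, counts ranged as follows. Starvation gave 40 to 57 in wild type, 45 to 56 in IDR mutant, 33 to 42 in interface mutant and 80 to 95 in the mean. IDR mutant against wild type gave 0 to 22 unstressed, 3 to 7 starved and 0 to 17 as interaction, and interface mutant against wild type 0 to 21 unstressed and 0 to 15 as interaction. Nuclear comparisons gave 5 to 34 in wild type, 0 to 10 in IDR mutant, 15 to 42 in interface mutant and 55 to 73 in the mean. Pair ratios gave 74 to 87, 4 to 8 and 40 to 75.

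Replicate numbers of whole cell libraries do not pair them (3 of 15 correlations over 0.1, from −0.43 to 0.33). With the replicate block, starvation gave 51, 63, 48 and 84 calls in wild type, IDR mutant, interface mutant and the mean, the starved IDR mutant 14 and the unstressed one 0. The nuclear comparisons gave 45, 11, 47 and 62, and no other comparison of single features crossed 1.5 times under the block.

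Depth limits the unlisted features most: at a median of 0.131 CPM, most do not reach the filter, and 51 have no whole cell count at all, so that no difference between whole cell groups was detectable in them at this depth.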

Other observations

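YBL096C and YBL094C, both opposite MRX3, were higher in the starved IDR mutant (against wild type, also starved) by log2 2.42 ± 0.49 and 2.10, and YBL094C was also higher in nuclei (1.77 ± 0.39) and in starved than in unstressed whole cells (1.53 ± 0.36). YBL094C lies 158 bases behind the Mediator subunit gene ROX3, and YBL096C begins 282 bases behind YBL094C. MRX3 had 26.1 and 23.1 CPM in starved IDR mutant and 33.8 and 34.3 CPM in starved wild type cells.

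YOL085W-A and YOL085C, which face each other, both rose with starvation. YOL085W-A had 3.27 to 5.64 CPM in starved and 0.142 to 0.948 CPM in unstressed whole cells (log2 3.11 ± 0.24), and YOL085C had 2.00 to 8.46 CPM in starved and 0 to 0.0711 CPM in unstressed ones.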
